A study of Mus musculus with 6 samples.

Results

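The alpha2delta and beta auxiliary subunits of voltage-gated calcium channels are the products of 8 genes, which were taken by symbol from the 32285 genes counted in the files. Cacna2d1, Cacna2d2, Cacna2d3, and Cacna2d4 encode the 4 alpha2delta subunits, and Cacnb1, Cacnb2, Cacnb3, and Cacnb4 encode the 4 beta subunits. Gene positions below are on GRCm38.

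A high-voltage-activated calcium channel is built around a pore-forming alpha1 subunit that is joined by an alpha2delta and a beta subunit. The alpha2delta proteins lie on the outer face of the membrane, promote the delivery of channels to the cell surface and to presynaptic terminals, and include the receptors of gabapentin. The beta proteins lie on the inner face, bind an intracellular loop of alpha1, help it reach the membrane, and modify how the channel opens and inactivates.

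Nuclei came from the prelimbic (PL) area of the medial prefrontal cortex of male C57BL/6 mice. Run males were raised by dams with a running wheel and Sed males by dams in standard cages, and after weaning they were group-housed (GH) or kept in social isolation (SI). Dataset 1 held 1 RunGH and 1 SedGH library from males sampled after tube tests and chosen by their rank, and dataset 2 held 1 library each of RunGH, SedGH, RunSI, and SedSI from males without behavioral testing. Each library was a pool of 3 males, so that no p-value below measures the spread between males. No group had another pool within a dataset. The spread behind the p-values for Run against Sed therefore also holds any change of that effect between datasets or housing conditions. The methods do not say clearly how rank was divided between the Run and Sed males of dataset 1. The label gives the age as P21, postnatal day 21, whereas the methods describe adults.

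The libraries held 19134955 to 188952936 UMIs (unique molecular identifiers, which mark single captured RNA molecules), and 4997 to 9936 nuclei per library were retained, 42595 in all. The median nucleus held 1637 to 6250 UMIs, the lowest in SedGH of dataset 2 and the highest in SedGH of dataset 1. Any pair of libraries shared 5 to 22 cell barcodes. Nuclei were clustered without the 8 genes and named from marker genes, and a class name below is short for nuclei like that type. All 6 markers of PV (parvalbumin), SST (somatostatin), VIP, and NPY interneurons, all 10 of astrocytes, and 6 of 7 of pyramidal neurons were highest in their own class, whereas 3 of 6 were for layer 2/3, 3 of 5 for mid-layer, and 3 of 6 for deep Oprk1 neurons. Most nuclei were pyramidal (4058 to 7678 per library), and PV interneurons numbered 166 to 381 per library. The layer classes named below do not hold all pyramidal nuclei, and the rest entered only the sum over pyramidal neurons. In this account levels are CPM, the counts of a gene scaled to a common UMI total for each class of a library, and 6 values given in a row are in the order RunGH and SedGH of dataset 1, then RunGH, SedGH, RunSI, and SedSI of dataset 2. Means are given ± SD over the 6 libraries (n = 6).

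RNA released from broken cells reaches every droplet, and its amount differed between the datasets. The summed level of the 7 pyramidal markers in PV interneurons was 10.4% to 29.9% of that in pyramidal neurons, and in astrocytes it was 12.02% to 44.3%. It was 40.2% to 74.3% in oligodendrocytes and 63.1% to 73.5% in microglia, where the mean Cacna2d1 levels of 659 ± 197 and 558 ± 143 CPM stood beside this. Barcodes with fewer UMIs than the retained nuclei of the same library were used to measure this free RNA, and its levels are given beside the members they bear on. The median of these barcodes was 1062 and 1194 UMIs in dataset 1 and 82 to 302 UMIs in dataset 2, and whether some held nuclei was not tested. In SedGH of dataset 2, nuclei were retained from 621 UMIs upward. With free RNA subtracted, mean Cacna2d1 was 630 ± 234 CPM in oligodendrocytes and 538 ± 111 CPM in microglia. The part of other cells' RNA that remained in these glial levels was not tested.

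The alpha2delta genes divided the cell classes between them. Per length of the gene, Cacna2d1 prevailed in NPY interneurons and in every named pyramidal class except layer 5 extratelencephalic (ET) neurons. On the same scale Cacna2d2 prevailed in PV interneurons, and Cacna2d3 in SST and VIP interneurons and in layer 5 ET neurons. Cacna2d4 was at most 3.78 CPM on average outside oligodendrocytes. Among the beta genes, Cacnb4 was the highest per length in most neuron classes.

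**Figure D1:**
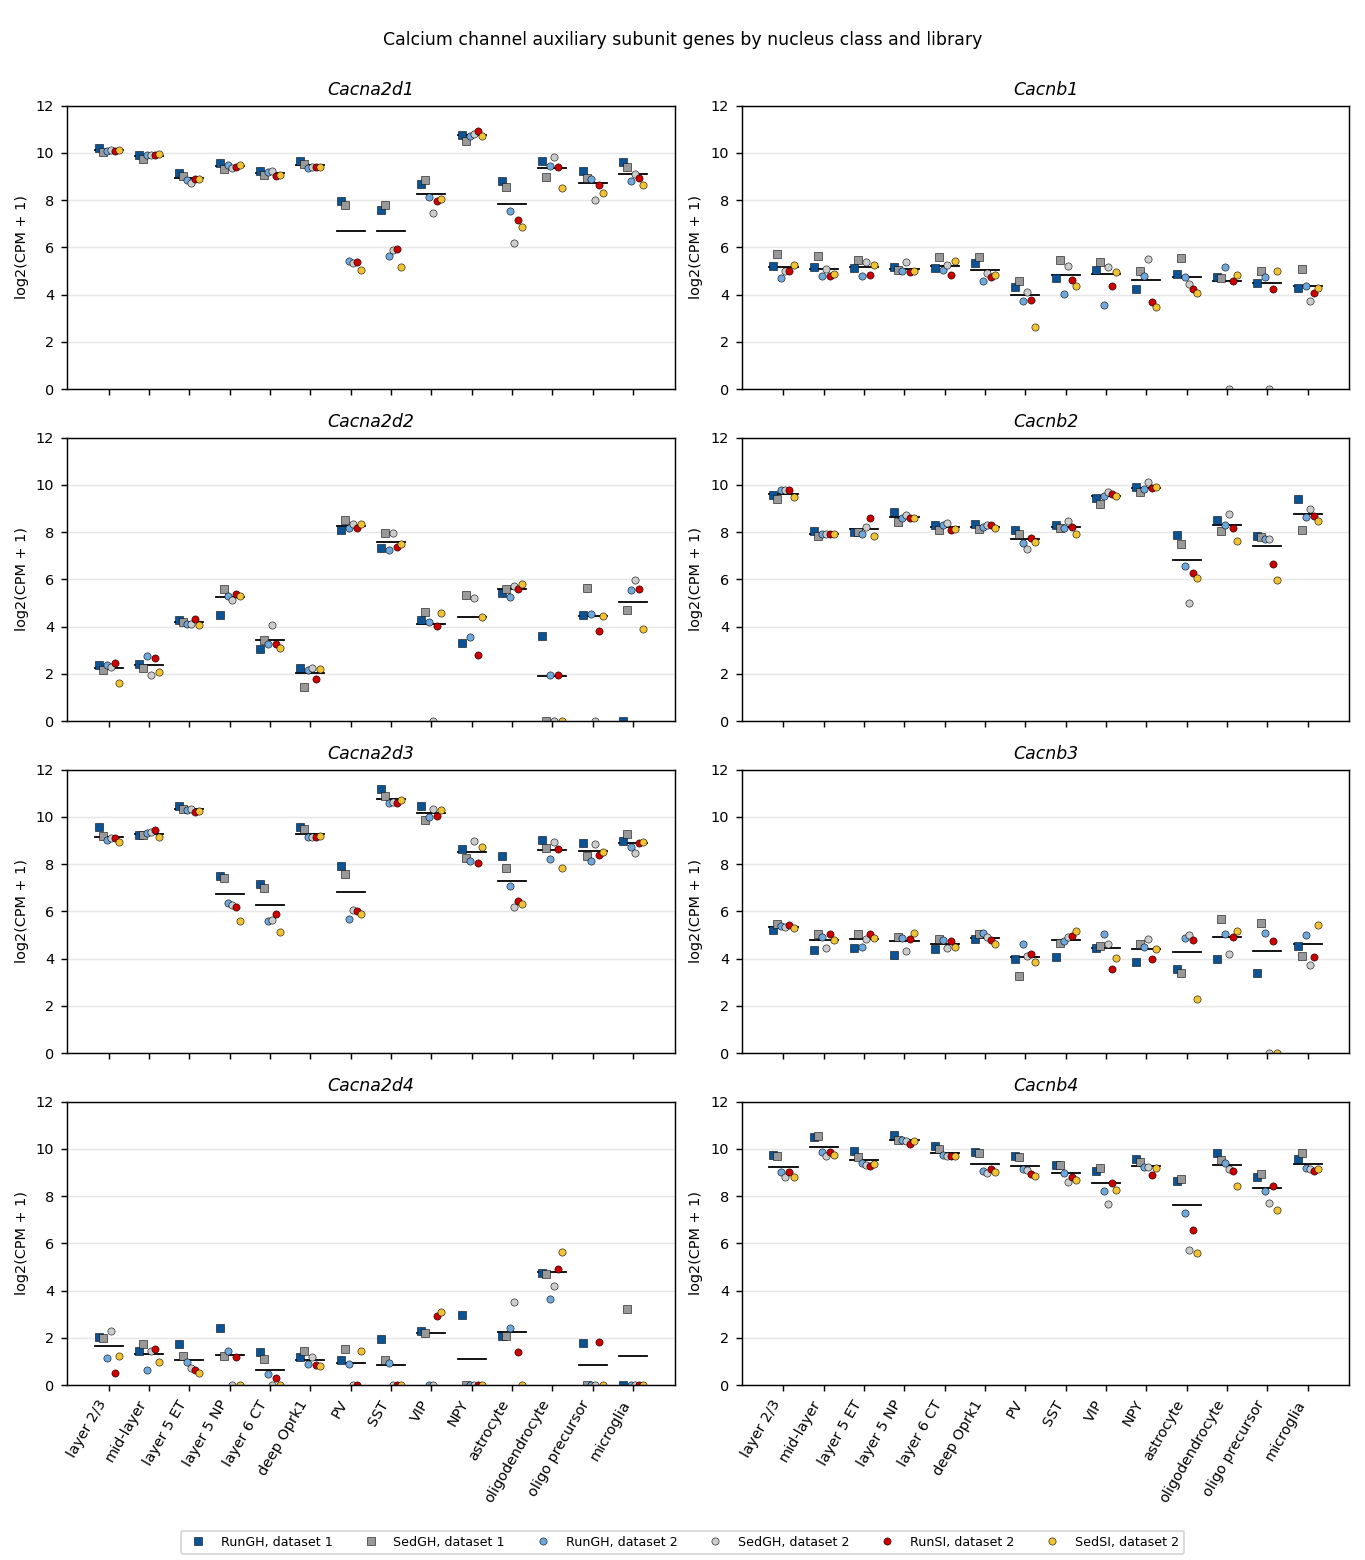
Level of each of the 8 genes (log2 of CPM + 1, vertical axis) in 14 cell classes (horizontal axis). Each point is 1 library, squares for dataset 1 and circles for dataset 2, and the line is at the log2 of the mean CPM + 1. Cacna2d2 reached its highest values in PV interneurons (275 to 363 CPM) and Cacna2d1 in NPY interneurons (1463 to 1951 CPM).

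Cacna2d1 encodes alpha2delta-1, a widely expressed subunit that binds gabapentin, and lies at chr5:15934691-16374511. In NPY interneurons its levels were 1712, 1463, 1700.5, 1808, 1951, and 1691 CPM (1721 ± 160.2). In layer 2/3 pyramidal neurons they were 1179, 1050.4, 1092, 1113, 1069, and 1117 CPM (1103 ± 44.9). The ranges of these leading classes did not overlap, and NPY interneurons were higher in 6 of 6 libraries, by 0.64 on the log2 scale on average. Among the other pyramidal classes the gene stood at 946 ± 46.0 CPM in mid-layer, 566 ± 37.9 CPM in layer 6 corticothalamic (CT), and 487 ± 50.04 CPM in layer 5 ET neurons. Layer 2/3 was above mid-layer in 6 of 6 libraries (mean log2 difference 0.22), whereas the deep Oprk1 and layer 5 near-projecting (NP) classes, at 712 and 692 CPM, were in the same order in only 4 of 6.

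PV interneurons, fast-spiking cells that contact the soma of pyramidal neurons, had little Cacna2d1. Their values were 247, 221, 41.8, 39.4, 41.0, and 32.5 CPM, whereas pyramidal neurons as a whole had 921, 770.0, 791, 804, 743, and 817 CPM. The groups did not overlap, and the mean log2 difference, PV minus pyramidal, was −3.52 (SD 1.30), negative in 6 of 6 libraries. SST interneurons, which contact dendrites, were similarly low, at 102 ± 80.8 CPM, and were not separated from PV interneurons (PV higher in 2 of 6 libraries). In both, the dataset 1 libraries were the highest, and so was the free RNA, at 962 and 920.1 CPM in dataset 1 against 354 to 405 CPM in dataset 2. With free RNA subtracted, Cacna2d1 averaged 32.1 ± 31.1 CPM in PV and 29.7 ± 13.3 CPM in SST interneurons, and PV minus pyramidal was −5.22 on the log2 scale. Astrocytes had 455, 380.4, 188, 72.2, 141, and 117 CPM, again highest in dataset 1, and averaged 145 ± 81.4 CPM after subtraction.

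Cacna2d2 encodes alpha2delta-2, which also binds gabapentin and is mutated in the epileptic and ataxic ducky mouse. The gene lies at chr9:107399612-107529343. It was the counterpart of Cacna2d1 in PV interneurons, with 275, 363, 286, 325, 286, and 321 CPM (309.6 ± 33.4). Pyramidal neurons had 6.33, 7.42, 8.63, 8.75, 10.1, and 6.90 CPM (8.02 ± 1.38), and the mean log2 difference was 5.28 (SD 0.31) in favor of PV interneurons in 6 of 6 libraries. SST interneurons followed with 158, 249, 152, 248, 164, and 178 CPM, lower than PV interneurons of the same library in 6 of 6. Free RNA held 13.8 to 26.2 CPM, above the pyramidal level. At least 1 UMI was found in 37.6% to 84.5% of PV nuclei but in 1.65% to 4.74% of pyramidal nuclei. Median depth was 1339 to 5595.5 UMIs in PV and 1697 to 6816.5 UMIs in pyramidal nuclei, and with nuclei thinned to 1000 UMIs the shares were 21.9% to 33.3% and 0.641% to 1.13%.

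Outside interneurons, astrocytes had the most Cacna2d2, with 42.0, 48.0, 37.3, 51.5, 47.7, and 54.6 CPM (46.9 ± 6.30, from 5 to 78 UMIs per library). This was above the level of pyramidal neurons in 6 of 6 libraries (mean log2 difference 2.55, SD 0.32, or 1.61 in UMIs per nucleus in place of CPM), also in dataset 1, where the summed pyramidal markers in astrocytes were highest. Layer 5 NP neurons, at 36.9 ± 8.66 CPM, did not differ from astrocytes beyond the spread (5 of 6 libraries, exact sign-flip p = 0.0938). Among pyramidal neurons, layer 5 NP and layer 5 ET (17.2 ± 1.26 CPM) had the highest means, and layer 2/3 (3.73 ± 0.882 CPM) and mid-layer (4.22 ± 1.15 CPM), where Cacna2d1 was highest, were among the lowest. Across the mean log2 levels of the 14 classes, Cacna2d1 and Cacna2d2 had a Pearson r of −0.83. The classes share libraries and depth, and this value is a description only.

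Cacna2d3 encodes alpha2delta-3, known from work on pain and hearing, and lies at chr14:28904943-29721864. Its highest levels were in SST interneurons, with 2315, 1893, 1538, 1563, 1546, and 1684 CPM (1756 ± 305). Layer 5 ET neurons, which project below the cortex, had 1419.9, 1287, 1237, 1277, 1195, and 1218 CPM (1272 ± 80.3). VIP interneurons, which mainly inhibit other interneurons, had 1397, 938, 1008, 1275, 1055, and 1269 CPM (1157 ± 181). SST interneurons were above layer 5 ET neurons in 6 of 6 libraries, but layer 5 ET and VIP overlapped, with 5 of 6 in that order. Layer 2/3 and mid-layer neurons were at 574 ± 92.5 and 627 ± 47.3 CPM.

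The lowest levels of Cacna2d3 were in layer 6 CT neurons, at 140.1, 127, 47.9, 48.8, 58.5, and 33.7 CPM, and in layer 5 NP neurons, at 104 ± 55.9 CPM. The contrast between both layer 5 types was thus more than an order of magnitude in the mean, with layer 5 ET high and layer 5 NP low. PV interneurons were also low, at 240.5, 193, 49.6, 65.7, 63.3, and 58.1 CPM, which was below pyramidal neurons in 6 of 6 libraries (mean log2 difference −2.68, SD 0.85). Free RNA held 587 and 546 CPM of this gene in dataset 1 and 167 to 247 CPM in dataset 2, so that the low classes and the free RNA were both highest in dataset 1. After subtraction the means were 41.0 ± 8.18 CPM in layer 6 CT, 60.2 ± 10.2 CPM in layer 5 NP, and 76.9 ± 48.9 CPM in PV neurons.

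**Figure D2:**
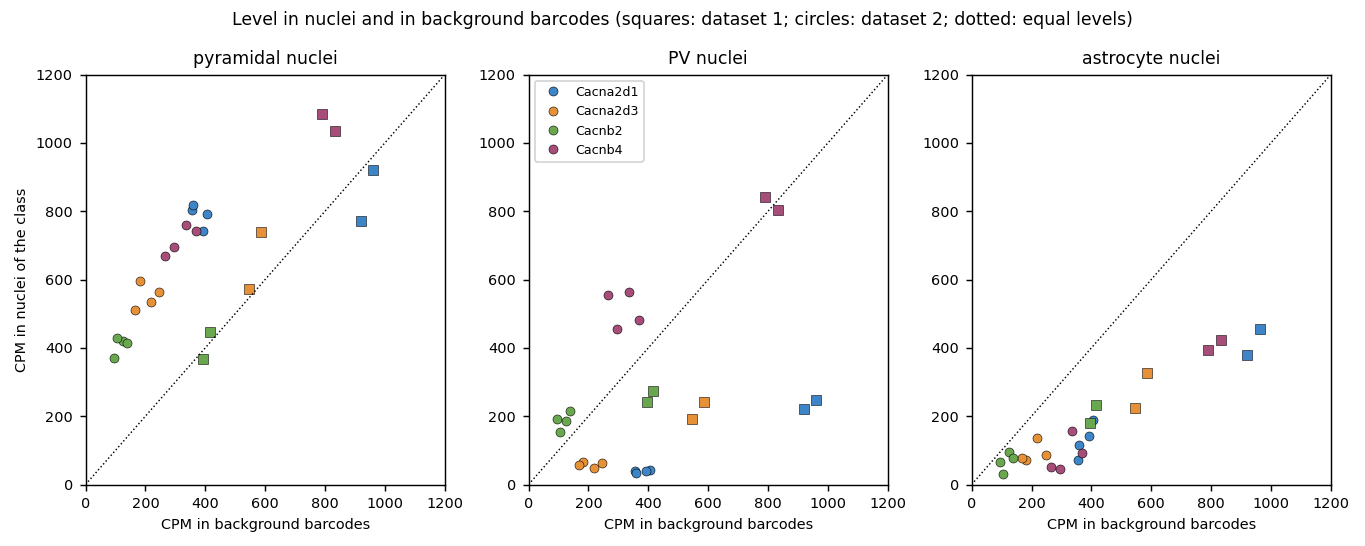
CPM of Cacna2d1, Cacna2d3, Cacnb2, and Cacnb4 in pyramidal, PV, and astrocyte nuclei (vertical axis) against CPM in the background barcodes that sample free RNA (horizontal axis), 1 point per gene and library, with squares for dataset 1, circles for dataset 2, and a dotted line at equal levels. For Cacna2d1 the background was 962 and 920.1 CPM in dataset 1 and 354 to 405 CPM in dataset 2, and all PV and astrocyte points of that gene lie below the line.

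Cacna2d4 encodes alpha2delta-4, which serves photoreceptor synapses in the retina, and lies at chr6:119236526-119352407. Its highest level was in oligodendrocytes, with 25.9, 24.97, 11.6, 17.3, 29.1, and 48.6 CPM (26.2 ± 12.7), but these rested on only 1 to 10 UMIs per library, and 240 of the 324 UMIs over all nuclei were in the far more numerous pyramidal nuclei. Elsewhere its mean was at most 3.78 CPM, and in pyramidal neurons it was 1.39 ± 0.667 CPM, within the range of free RNA (0.739 to 1.71 CPM) in the mean. The protein-coding gene Lrtm2 lies within Cacna2d4 on the opposite strand.

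Levels of different genes are compared here per length of the gene, since intronic reads were counted. The genes span 13.7 kb (Cacnb3) to 816.9 kb (Cacna2d3). Whether counts scale with span in this 3' assay was not tested. Exons made up 29.3% of the span of Cacnb3 and 1.07% of that of Cacna2d3, and dividing by span raises the shortest genes most. Per 100 kb of span, pyramidal neurons had 184 ± 13.96 CPM of Cacna2d1, 71.8 ± 9.85 CPM of Cacna2d3, and 6.18 ± 1.07 CPM of Cacna2d2. As shares of the per-length sum of the 4 genes, Cacna2d1 made up 69.9% ± 1.82 in pyramidal, 86.5% ± 3.97 in NPY, and 88.3% ± 3.53 in layer 6 CT neurons. Cacna2d2 made up 87.2% ± 9.87 in PV interneurons, from 71.0% to 93.9%. Cacna2d3 took 62.9% ± 10.2 in VIP interneurons and 55.6% ± 1.68 in layer 5 ET neurons. SST interneurons were divided between Cacna2d3 (55.9% ± 5.94) and Cacna2d2 (38.4% ± 6.85).

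**Figure D3:**
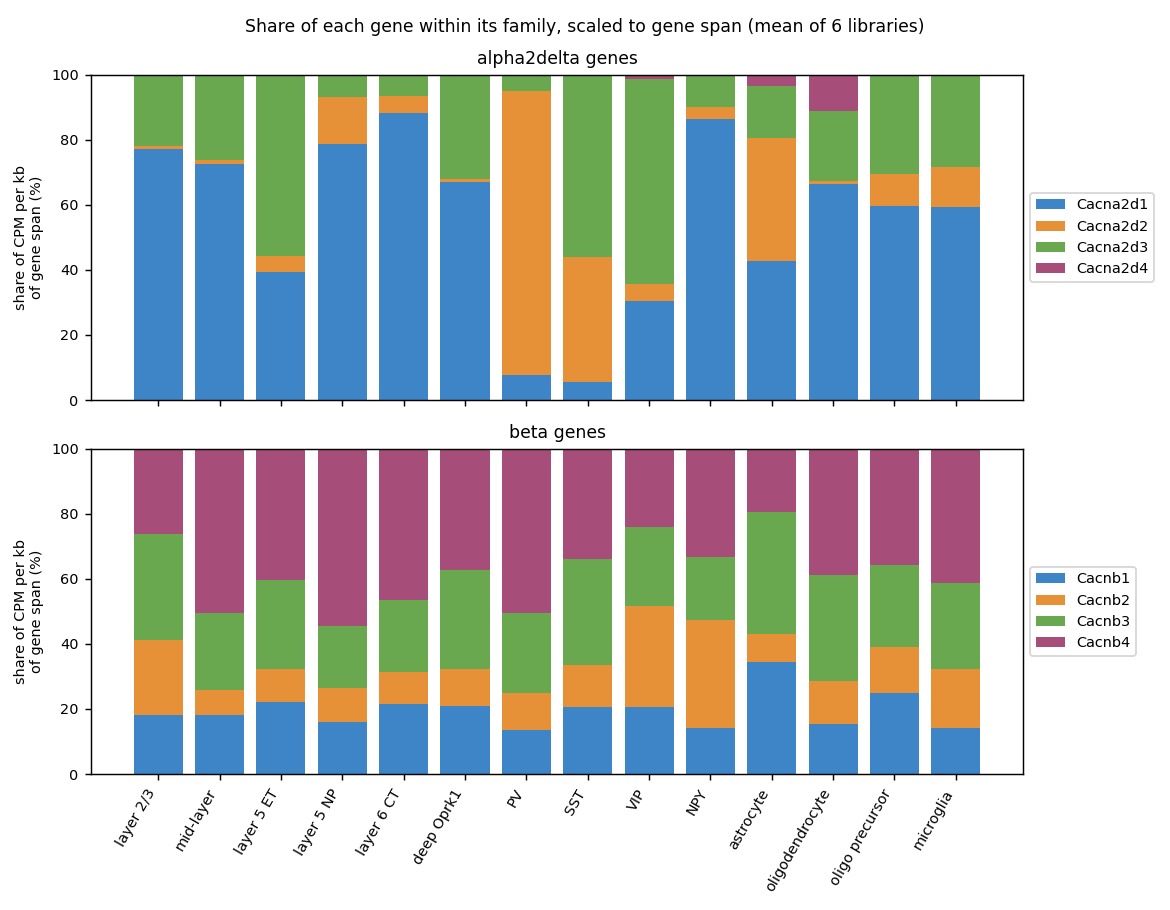
Share of each gene in the summed CPM per kb of gene span (percent, vertical axis) for the alpha2delta and the beta family, by cell class, as the mean of 6 libraries. Cacna2d2 fills 87.2% of the PV bar, Cacna2d1 88.3% of the layer 6 CT bar, and Cacnb4 54.4% of the layer 5 NP bar.

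Among the beta subunits, Cacnb4, which is mutated in the ataxic lethargic mouse, was the highest per length in pyramidal neurons, at 334 ± 72.7 CPM per 100 kb of span. Cacnb3 (216 ± 21.2), Cacnb1 (159 ± 33.8), and Cacnb2 (106 ± 8.50) followed on the same scale. Without this scale the order differed, with mean CPM of 830 for Cacnb4, 408 for Cacnb2, 34.2 for Cacnb1, and 29.6 for Cacnb3. In shares, Cacnb4 made up 40.7% in pyramidal neurons, 50.7% in PV interneurons, and 54.4% in layer 5 NP neurons. VIP interneurons had 31.1% Cacnb2, 24.2% each of Cacnb4 and Cacnb3, and 20.6% Cacnb1. Layer 2/3 neurons had 32.4% Cacnb3, 26.3% Cacnb4, and 23.2% Cacnb2, whereas in unscaled CPM they had 39.9, 601, and 796 of these genes. NPY interneurons had 33.3% Cacnb4 and 33.2% Cacnb2.

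Cacnb4, at chr2:52428320-52676831, had its highest level in layer 5 NP neurons, with 1548, 1311, 1340.1, 1304, 1177, and 1286 CPM (1328 ± 122). Pyramidal neurons had 1084, 1034, 760.1, 668, 742, and 695 CPM, and PV interneurons had 842, 803, 564, 555, 483, and 455 CPM. PV interneurons were lower in 6 of 6 libraries, with a mean log2 difference of −0.44 (SD 0.14), the smallest of the PV differences among the 7 genes tested. In both classes the dataset 1 libraries stood above all of dataset 2, and the free RNA did too (791 and 833 CPM against 264 to 369 CPM). With free RNA subtracted the step stayed, with 1136 and 1072 CPM in dataset 1 against 686 to 789 CPM in dataset 2 in pyramidal neurons, and 853 and 795 CPM against 460.3 to 585 CPM in PV interneurons. In astrocytes the gene averaged 194 ± 170.4 CPM, below pyramidal neurons in 6 of 6 libraries (mean log2 difference −2.60, or −3.29 with free RNA subtracted and −3.54 in UMIs per nucleus).

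Cacnb2, known for its role in the cardiac L-type channel and located at chr2:14603088-14987908, was highest in NPY interneurons, with 949, 842, 900.1, 1103, 929, and 955 CPM (946 ± 87.2). Layer 2/3 neurons had 754, 670.3, 893, 869.6, 873, and 714 CPM, and VIP interneurons had 704, 592, 749, 826, 789.6, and 739 CPM. NPY interneurons were above layer 2/3 neurons in 6 of 6 libraries (mean log2 difference 0.25), while layer 2/3 and VIP overlapped (5 of 6). All other pyramidal classes were far lower, from 242 ± 11.8 CPM in mid-layer to 399 ± 41.1 CPM in layer 5 NP neurons, so that mid-layer neurons, rich in Cacna2d1 like layer 2/3, did not share its Cacnb2. PV interneurons had 273, 242, 185, 154, 216, and 192 CPM, below pyramidal neurons in 6 of 6 libraries (mean log2 difference −0.98, SD 0.31).

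Cacnb1, the subunit of the skeletal muscle channel, and Cacnb3, a frequent partner of N-type channels, are the shortest of the 8 genes. They lie at chr11:98001508-98023034 and chr15:98630840-98644529. In pyramidal neurons Cacnb1 had 36.1, 47.3, 27.7, 32.5, 27.5, and 34.2 CPM and Cacnb3 had 26.1, 33.5, 30.7, 26.6, 31.6, and 28.8 CPM. Cacnb3 had its highest mean in layer 2/3 neurons (39.9 ± 2.49 CPM), while the means of Cacnb1 in the pyramidal classes lay between 32.1 and 36.7 CPM, with overlapping ranges. PV interneurons were below pyramidal neurons in 6 of 6 libraries for both, with 14.7 ± 6.13 CPM of Cacnb1 and 15.7 ± 4.90 CPM of Cacnb3. In dataset 2, free RNA was richer in both genes than pyramidal nuclei, with 45.1 to 52.1 CPM of Cacnb1 and 96.7 to 103 CPM of Cacnb3.

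Over the 6 libraries, 83 differences between classes were tested with an exact two-sided sign-flip permutation test. In 32 of them the p-value was 0.03125, the smallest this design can give, and none passed after Benjamini-Hochberg adjustment (smallest adjusted p = 0.0811). Another 37 were not tested because a library had fewer than 3 UMIs. Of the 83 tests, 71 were between neighbors in the order of mean levels. That order was taken from the same libraries, so the direction of these tests was chosen from the values tested. Counts of libraries between such neighbors, such as 6 of 6, describe that order only. A fit across all genes by edgeR, added after these results were seen, with library as a term and Benjamini-Hochberg adjustment, called 7 of 8 members different between PV and pyramidal neurons. Cacna2d2 was higher (log2 change 5.14, SE 0.08, adjusted p = 1.05e-43), where 24.1% of 15277 genes were called higher. Lower were Cacna2d1 (−3.26, SE 0.52, adjusted p = 0.00362), Cacna2d3 (−2.62, adjusted p = 0.00155), Cacnb1 (−1.27), Cacnb2 (−1.06), Cacnb3 (−1.03), and Cacnb4 (−0.58), where 23.1% of genes were called lower. Cacna2d4 was not called (−0.75, adjusted p = 0.326). In astrocytes against pyramidal neurons, 7 of 8 were called by the same edgeR fit, again Cacna2d2 higher (2.37, adjusted p = 3.24e-15) and the other 6 lower, beside 28.1% of genes higher and 26.1% lower.

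The effect of the maternal environment was asked next. In a fit of Run against Sed over the 6 libraries by edgeR, with dataset and housing as terms, 0 members were called in each of 8 classes, and DESeq2 also called 0. Few genes of any kind were called. By edgeR the share of all genes was 0.0% in pyramidal, 0.00695% in layer 2/3, 0.0382% in layer 6 CT, 0.0971% in PV, 0.0502% in SST, 0.0266% in VIP, 0.0171% in NPY, and 0.0426% in astrocyte nuclei. By DESeq2 it was 0.284% in pyramidal, 0.202% in layer 2/3, 0.0992% in layer 6 CT, 0.0582% in PV, 0.0401% in SST, 0.0266% in VIP, 0.0171% in NPY, and 0.0107% in astrocyte nuclei. After the filter on low counts 8 members were fitted in pyramidal and layer 2/3 neurons, 5 in NPY interneurons, and 7 in the other classes, Cacna2d4 being the first to drop out. At an unadjusted p under 0.05 there was 1 of 8 members in pyramidal neurons (7.36% of all genes) 1 of 7 in PV interneurons (5.87% of all genes), 1 each in layer 2/3 (7.02%), layer 6 CT (6.12%), SST (5.98%), and NPY nuclei (5.26%), 2 in astrocytes (6.30%), and 0 in VIP interneurons (4.19%). The members' median log2 change was 0.02 in pyramidal neurons, where that of all genes was −0.01, and 0.15 in PV interneurons, where it was 0.00.

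Cacnb1 was the member at an unadjusted p under 0.05 in pyramidal neurons. It was lower in the Run library of all 3 pairs, with 36.1 against 47.3 CPM in dataset 1, 27.7 against 32.5 CPM under group housing in dataset 2, and 27.5 against 34.2 CPM under isolation. The log2 ratios were −0.39 (95% interval −0.49 to −0.29), −0.23 (−0.42 to −0.04), and −0.32 (−0.47 to −0.17). The intervals of such pairs of libraries cover counting error only. By edgeR the change was −0.36 (SE 0.09, adjusted p = 0.667), which does not pass. With dataset 2 alone, and 1 residual degree of freedom, it was −0.37 (edgeR adjusted p = 0.0234), where 14.2% of all genes were called. Leaving out either library of dataset 1 is nearly the same fit, since the dataset term then takes up the one that remains, and gave −0.37 (edgeR adjusted p = 0.0140 and 0.0139), with 14.7% and 15% of genes called. Free RNA of dataset 2 also held less Cacnb1 in the Run libraries (46.2 against 51.4 CPM and 45.1 against 52.1 CPM). Free RNA of dataset 1 did not, at 27.6 CPM in Run against 27.4 CPM in Sed. With free RNA subtracted the change was −0.37 (edgeR adjusted p = 0.874). Layer 2/3 (edgeR log2 change −0.41, adjusted p = 0.610) and layer 6 CT neurons (−0.49, adjusted p = 0.757) gave the same direction without passing. Cacnb1 was lower in the Run library of every pair in layer 2/3, mid-layer, layer 5 ET, layer 6 CT, and deep Oprk1 neurons, while in layer 5 NP neurons the dataset 1 pair ran the other way (35.2 against 32.2 CPM). Some differences were small, such as 27.1 against 28.3 CPM in mid-layer neurons under isolation. All these classes are parts of the pyramidal sum by which Cacnb1 was picked, so their directions are not separate observations.

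Cacna2d2 was the corresponding member in PV interneurons, where it was lower in Run in 3 of 3 pairs. The log2 ratios were −0.40 (95% interval −0.59 to −0.21) in dataset 1, −0.18 (−0.51 to 0.15) under group housing in dataset 2, and −0.17 (−0.42 to 0.09) under isolation, so that only the first interval left out 0. By edgeR the change was −0.27 (SE 0.13, adjusted p = 0.848). In SST interneurons the ratios were −0.66 (−0.93 to −0.38), −0.71 (−1.12 to −0.28), and −0.12 (−0.52 to 0.29), and the edgeR change was −0.50 (SE 0.16, adjusted p = 0.746). Neither passed the test.

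In astrocytes the members at an unadjusted p under 0.05 were Cacna2d3 (edgeR log2 change 0.48, adjusted p = 0.726) and Cacnb2 (0.42, adjusted p = 0.787), both higher in Run. The summed pyramidal markers in astrocytes were higher in the Run library of each pair too, at 44.3% against 36.0%, 29.6% against 12.02%, and 27.1% against 20.1% of the pyramidal level, and their part in these changes was not tested.

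Some pairs differed widely within a single class. Cacnb2 in layer 5 ET neurons was at 382 CPM in RunSI and 227 CPM in SedSI (log2 ratio 0.75, 95% interval 0.61 to 0.89), whereas it was at 258 against 255 CPM in dataset 1 and 238 against 298 CPM under group housing in dataset 2. Cacna2d3 in layer 6 CT neurons was at 58.5 CPM in RunSI and 33.7 CPM in SedSI (0.79, 0.42 to 1.18), where the mean after subtraction of free RNA was 41.0 ± 8.18 CPM. Free RNA held 247 CPM of this gene in RunSI and 167 CPM in SedSI, and after subtraction the pair was at 45.2 against 28.5 CPM. Both the Cacnb2 and the Cacna2d3 difference under isolation rest on a single pair of pools without a replicate.

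**Figure D4:**
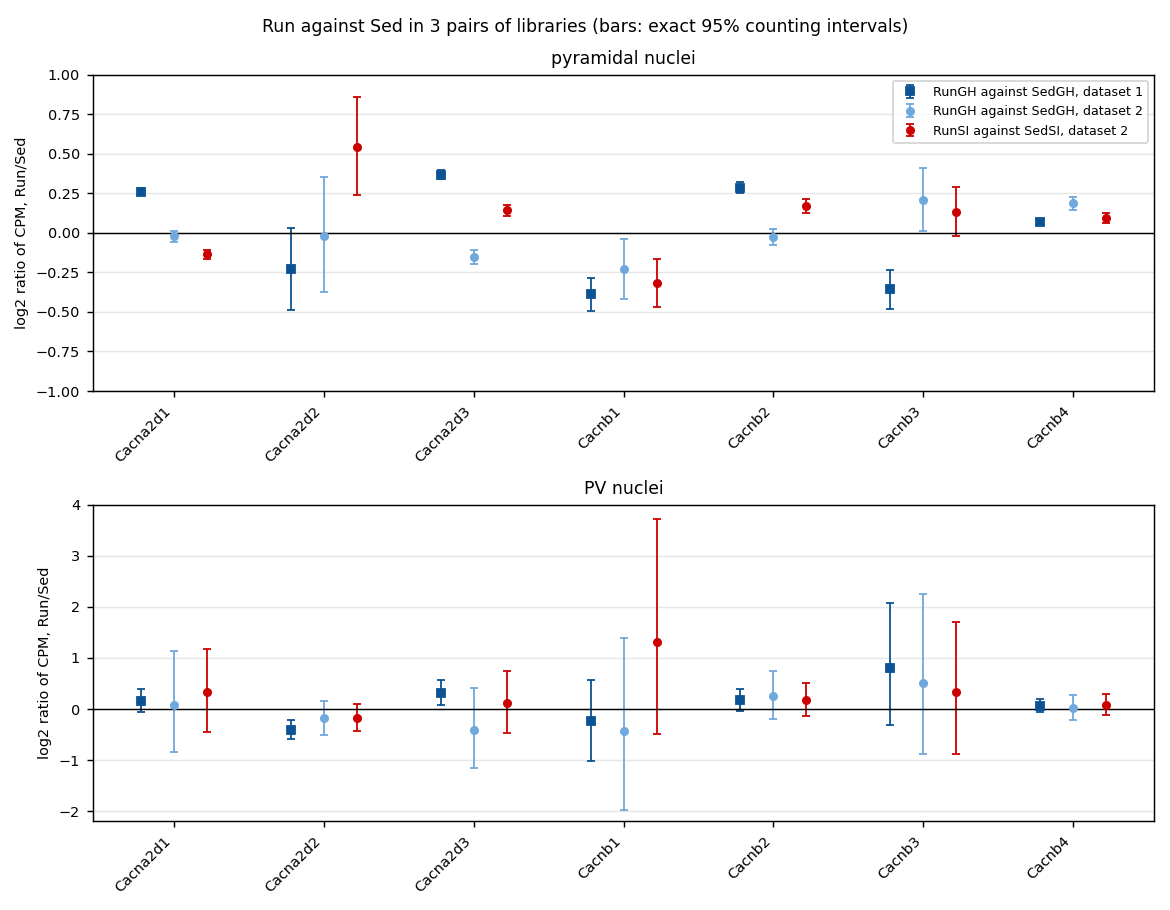
Log2 ratio of Run to Sed CPM (vertical axis) in the 3 pairs of libraries for 7 genes, in pyramidal and PV nuclei, with exact 95% counting intervals. Cacnb1 in pyramidal neurons (−0.39, −0.23, and −0.32) and Cacna2d2 in PV interneurons (−0.40, −0.18, and −0.17) were below 0 in each pair.

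Whether the maternal effect differed between datasets was tested with an interaction term, which left 1 residual degree of freedom. In pyramidal neurons edgeR called 2 of 8 members, beside 11.1% of all 18701 genes. Cacna2d1 differed by −0.47 (dataset 2 minus dataset 1, SE 0.11, edgeR adjusted p = 0.00427) and Cacna2d3 by −0.50 (SE 0.12, edgeR adjusted p = 0.00533). In dataset 1 Cacna2d1 was higher in Run, at 921 against 770.0 CPM, but in dataset 2 it was not, at 791 against 804 CPM and 743 against 817 CPM. Cacna2d3 was at 739 against 573 CPM in dataset 1, 535 against 595 CPM under group housing, and 564 against 512 CPM under isolation, so that the pairs of dataset 2 went opposite ways. In the same fit, the Run effect within dataset 1 was 0.30 for Cacna2d1 (edgeR adjusted p = 0.0404), 0.41 for Cacna2d3 (adjusted p = 0.00899), and 0.33 for Cacnb2 (adjusted p = 0.0394), where 5.94% of genes were called. That estimate rests on a single pair of pools, and its p takes no spread from dataset 1, since the residual degree of freedom comes from the pairs of dataset 2 alone. DESeq2 gave nearly the same differences, −0.45 for Cacna2d1 (DESeq2 adjusted p = 0.210) and −0.49 for Cacna2d3 (adjusted p = 0.246), and called 0 members, beside 2.22% of all genes.

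The mix of layers also differed between libraries, and its part in these calls was not tested. Layer 6 CT neurons have the lowest mean of Cacna2d3 and less Cacna2d1 than pyramidal neurons as a whole. They made up 10.3% of pyramidal nuclei in RunGH and 24.0% in SedGH of dataset 1. In RunGH, SedGH, RunSI, and SedSI of dataset 2 they made up 17.9%, 11.7%, 14.7%, and 13.9%. Layer 2/3 neurons, rich in Cacna2d1, made up 31.98% and 25.4% of those nuclei in dataset 1. In dataset 2 they made up 27.2%, 27.7%, 23.8%, and 28.5%, in the same order. Within layer 2/3, the log2 ratio of Run to Sed in dataset 1 was 0.17 for Cacna2d1 and 0.35 for Cacna2d3, against 0.26 and 0.37 over all pyramidal neurons. In dataset 1 the ratio of Cacna2d1 was above 0 in all 6 pyramidal classes, from 0.12 (95% interval 0.05 to 0.20) in deep Oprk1 to 0.26 (0.09 to 0.43) in layer 5 NP neurons. For Cacna2d3 the ratio in the 5 pyramidal classes other than layer 2/3 was smaller, at 0.14 (0.08 to 0.20) in layer 5 ET, 0.14 (−0.01 to 0.29) in layer 6 CT, 0.12 (−0.22 to 0.46) in layer 5 NP, 0.07 (−0.01 to 0.15) in deep Oprk1, and 0.02 (−0.06 to 0.09) in mid-layer neurons. The interval held 0 in 4 of these 5. Pyramidal nuclei outside the 6 classes entered only the sum over all pyramidal neurons, and their ratios were not computed. The interaction within layer 2/3 was −0.34 for Cacna2d1 (edgeR adjusted p = 0.224) and −0.44 for Cacna2d3 (adjusted p = 0.111), neither called where 5.86% of genes were. In layer 6 CT neurons it was −0.35 for Cacna2d1 (edgeR adjusted p = 0.179) and 0.20 for Cacna2d3 (adjusted p = 0.767), with 4.32% of genes called. At an unadjusted p under 0.05 there were 3 of 8 members in layer 2/3 and 2 of 7 in layer 6 CT neurons, where 17.2% and 14.9% of all genes were, and DESeq2 called 0 in both, beside 0.59% and 0.202% of genes.

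**Figure D5:**
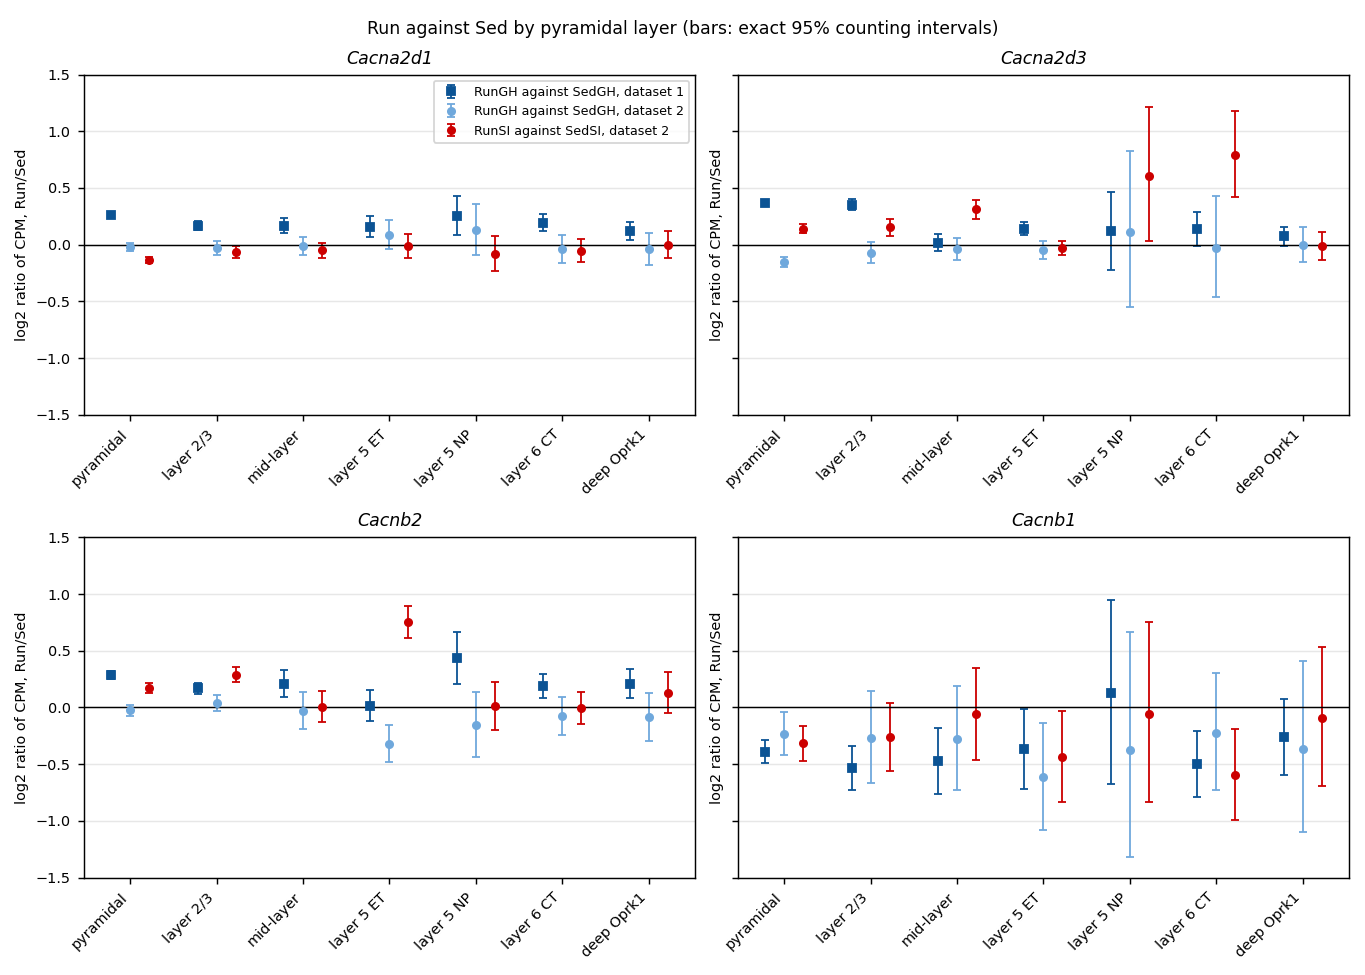
Log2 ratio of Run to Sed CPM (vertical axis) for Cacna2d1, Cacna2d3, Cacnb2, and Cacnb1 in all pyramidal nuclei and in 6 pyramidal classes (horizontal axis), with 1 point per pair of libraries and exact 95% counting intervals. For Cacna2d1 the dataset 1 pair was above 0 in every class, for Cacnb1 all class points but that of layer 5 NP in dataset 1 were below 0, and Cacnb2 in layer 5 ET reached 0.75 in the isolated pair.

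The upstream sequences of Cacna2d1 and Cacna2d3 are shown because both were called in that comparison. They are the 250 bases before the RefSeq start in GRCm38.p6, at chr5:15934441-15934690 on the plus strand and chr14:29721865-29722114 on the minus strand, read 5′ to 3′ with CpG in capitals.
Cacna2d1: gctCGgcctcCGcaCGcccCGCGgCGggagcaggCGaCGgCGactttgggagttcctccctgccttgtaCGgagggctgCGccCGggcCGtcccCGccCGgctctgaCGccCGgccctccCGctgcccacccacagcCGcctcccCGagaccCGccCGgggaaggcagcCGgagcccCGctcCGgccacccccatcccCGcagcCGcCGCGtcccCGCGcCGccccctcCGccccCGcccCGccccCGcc
Cacna2d3: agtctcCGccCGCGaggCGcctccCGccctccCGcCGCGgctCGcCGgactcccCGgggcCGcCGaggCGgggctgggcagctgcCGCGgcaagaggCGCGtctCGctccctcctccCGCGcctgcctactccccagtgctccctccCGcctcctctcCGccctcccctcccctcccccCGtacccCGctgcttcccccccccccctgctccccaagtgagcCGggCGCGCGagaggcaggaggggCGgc
These windows hold 36 and 30 CpG dinucleotides, where the median of 32851 mouse promoters of this length is 6, and 82.4% and 80% of their bases are G or C. A GC box (GGGCGG) on either strand was in both and is in 32.7% of all these promoters. Neither held a TATA box (TATAAA, 12.4% of promoters) or an E-box (CACGTG, 6.02%). Such matches describe the letters only.

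Interneurons gave 1 further call by edgeR. In VIP interneurons the interaction for Cacna2d3 was −0.91 (SE 0.23, edgeR adjusted p = 0.0442), where 0.274% of genes were called. The log2 ratio of Run to Sed was 0.57 (95% interval 0.43 to 0.72) in dataset 1, −0.34 (−0.64 to −0.02) under group housing in dataset 2, and −0.27 (−0.47 to −0.06) under isolation. The call did not hold with a lower limit of 1000 genes per nucleus, where the interaction was −0.47 (edgeR adjusted p = 1.00). There 0.0% of all genes were called. The call also ended, with the difference between −0.93 and −0.86, under 4 other alternatives of the 9 run. These were no low-count filter (edgeR adjusted p = 0.0795, 0.0704% of genes called), free RNA subtracted (0.0655, 0.328%), nuclei thinned to 1000 UMIs (0.747, 0.0291%), and DESeq2 (1.00, 0.0%). In NPY interneurons the ratios were 0.37, −0.84, and −0.66 without a call (interaction −1.19, edgeR adjusted p = 0.171, 0.0721% of genes called). In PV, SST, and astrocyte nuclei 0 members were called by edgeR or DESeq2, beside 0.958%, 0.778%, and 0.0569% of genes by edgeR and 0.0179%, 0.0183%, and 0.0% by DESeq2, and 0, 1, and 1 members had an unadjusted p under 0.05, where 10.01%, 9.63%, and 4.98% of genes did.

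Social isolation against group housing, estimated within dataset 2, called 0 members by edgeR or DESeq2 in any of the 8 classes. The share of all genes called by edgeR was 0.0% in 6 classes, 0.01% in SST, and 0.0213% in astrocyte nuclei, and by DESeq2 it was 0.0% in all 8. At an unadjusted p under 0.05 there was 1 member, in astrocytes (3.58% of all genes), and 0 elsewhere (0.947% to 3.46%). The members' median log2 change was −0.02 in pyramidal neurons, from −0.71 (Cacna2d4, with few UMIs) to 0.09 (Cacnb3), and −0.08 in PV interneurons. In pyramidal neurons SedSI against SedGH gave −0.22 (95% interval −0.27 to −0.17) for Cacna2d3 and −0.21 (−0.27 to −0.16) for Cacnb2, whereas RunSI against RunGH gave 0.08 (0.05 to 0.11) and −0.02 (−0.05 to 0.02). Whether housing changed the maternal effect was tested as well, with 1 residual degree of freedom. By edgeR 0 members were called in any class, beside at most 0.0114% of genes, with 0 members at an unadjusted p under 0.05. The spread in this fit is the change of the maternal effect between datasets. In pyramidal neurons only 0.283% of all genes had an unadjusted p under 0.05, so that the lack of calls decides little.

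The channel genes around the members were looked at as a list of 36, namely 10 alpha1 subunits, 8 gamma subunits, 6 binders of beta subunits, 6 active zone proteins, and 6 alpha2delta partners. Between 19 and 34 of them had enough counts in a class. By edgeR, 0 were called for Run against Sed or SI against GH in any class, with 5 of 34 at an unadjusted p under 0.05 in pyramidal neurons for the first (7.36% of all genes) and 1 of 34 for the second (0.947%). For the difference of the maternal effect between datasets, 4 of 34 were called in pyramidal neurons, close to the 11.1% of all genes, in each of which the Run effect was lower in dataset 2 than in dataset 1. They included Cacng3, a gamma subunit that also escorts AMPA receptors (log2 −0.73, edgeR adjusted p = 6.59e-05), and the active zone proteins Erc2 (−0.39, adjusted p = 0.0136) and Rims2 (−0.36, adjusted p = 0.0309). In layer 6 CT neurons 3 of 27 were called, Cacng3 and Rims2 among them, beside 4.32% of genes, in PV interneurons 1 of 24 (Rims2, −0.61, edgeR adjusted p = 0.0475, beside 0.958% of genes), and in the other classes 0.

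Over the 14 classes, the genes whose mean log2 levels were most like those of a member were sought among 9194 genes. For Cacna2d1 they were Mlip, Gm3510, and Nrp2 (Pearson r 0.95, 0.92, and 0.86), and for Cacna2d2 they were Fam20b, Gsdme, and Klf12 (0.93, 0.92, and 0.91). The closest to Cacna2d3 was Lrtm1 (0.98), which lies within Cacna2d3 on the opposite strand. For Cacnb2 they were Ftx, Zscan18 (both 0.90), and Gm13269 (0.86), of which the last is an antisense gene within Cacnb2. Cacnb1 was closest to Tusc3 (0.90) and Cacnb3 to Mok (0.90).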

How the data were processed

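Nuclei of the PL were profiled with the Chromium Single Cell 3' V3 kit. The authors deposited raw UMI counts of every barcode and gene, with introns included. They were made with Cell Ranger 6.0.0 against mm10 per the submitters' processing notes (the file header names another release). No list of called cells was used, but the numbers of nuclei that the paper gives per group entered the UMI minimum below. The 8 members, the gene lists, and the tests were chosen with earlier results of these data known.

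Barcodes needed 500 to 4000 genes, at most 1% mitochondrial UMIs, and a minimum of UMIs set from the largest barcodes of each library (621 to 3156). Smaller barcodes measured free RNA. Each dataset was clustered apart on Pearson residuals of 3000 genes without the members (35 components, 20 neighbors, Leiden resolution 0.6), and clusters were named from at least 3 detected markers, with naming thresholds set after clusters were seen. Classes needed 20 nuclei in every library. Doublets called by scrublet (1.09% to 6.75% per library) were kept and left out as an alternative. Counts were summed per library and class and fitted with edgeR 4.0.16 (TMM, filterByExpr, quasi-likelihood; the terms were dataset, maternal environment, and housing, which left 2 residual degrees of freedom), with Benjamini-Hochberg adjustment over all genes at 0.05 and DESeq2 1.42.0 as the alternative. Dataset is also the replicate number of the group-housed libraries, so it served as the block. Named were all members, list genes past the threshold, and the 3 most alike genes per member. Some of these genes are not reported here. The class fit of edgeR, with library as a term, the fit of dataset 2 alone for the maternal effect, and the alternatives of the interaction were added after seeing the data. The fits were tested on simulated data. Intervals of library pairs are exact conditional binomial. Gene positions are from GENCODE M21. Software was Python 3.11.15, scanpy 1.11.5, leidenalg 0.10.2, igraph 0.11.9, pandas 2.3.3, numpy 2.4.6, matplotlib 3.10.9, scipy 1.17.1, and R 4.3.3.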

Additional observations from a re-analysis of the deposited data

Results flagged for a closer look

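In 3 cases the maternal effect differed between the datasets by the test of the difference itself. The log2 change of Run against Sed in dataset 2 minus that in dataset 1 was −0.47 for Cacna2d1 in pyramidal neurons, −0.50 for Cacna2d3 in pyramidal neurons, and −0.91 for Cacna2d3 in VIP interneurons (edgeR adjusted p = 0.00427, 0.00533, and 0.0442). The same term was called for 11.1% of all genes in pyramidal neurons and 0.274% in VIP interneurons. Within layer 2/3 and layer 6 CT neurons the difference was −0.34 and −0.35 for Cacna2d1 (edgeR adjusted p = 0.224 and 0.179) and −0.44 and 0.20 for Cacna2d3 (adjusted p = 0.111 and 0.767), without a call. The call in VIP interneurons ended under 5 of 9 alternatives, with the difference between −0.93 and −0.86 in 4 of them and −0.47 in the other. Dataset 1 gives 1 pair of libraries to each, and by DESeq2 the differences were −0.45, −0.49, and −0.90 and none passed (adjusted p = 0.210, 0.246, and 1.00), beside 2.22% of genes called in pyramidal and 0.0% in VIP nuclei.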

How the results depend on the processing

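The number of members called for Run against Sed in pyramidal neurons was 0 under 15 of 19 alternatives. It was 1 without RunGH replicate 1 and 1 without SedGH replicate 1 (range 0 to 1 over left-out libraries), and 1 with dataset 2 only, which are in effect 1 alternative, since each rests on dataset 2. It was 3 with the maternal-by-dataset interaction as a term. In that fit the coefficient is the effect within dataset 1, which for Cacna2d1 was 0.30 in place of −0.02. In the other 7 classes, and for SI against GH in all 8, every alternative run gave 0 members. Without the replicate block the count was 0 in every class. Of the interaction, the 2 members in pyramidal neurons became 0 under DESeq2 only, with differences of −0.45 and −0.49 in place of −0.47 and −0.50. The 1 in VIP interneurons (−0.91) became 0 with no low-count filter, under DESeq2, with free RNA subtracted, and with nuclei thinned to 1000 UMIs (−0.93 to −0.86), and with a lower limit of 1000 genes (−0.47). Leaving out a library could not be run for the interaction, since no residual degrees of freedom are left.

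The differences of PV and of astrocyte from pyramidal nuclei kept their direction under all alternatives run, and those between neighboring classes were not recomputed. With free RNA subtracted, PV minus pyramidal was −5.22 for Cacna2d1 and 5.66 for Cacna2d2, and astrocyte minus pyramidal was 2.94 for Cacna2d2. Per nucleus in place of CPM, PV minus pyramidal was 4.92 for Cacna2d2, −1.33 for Cacnb2, and −0.80 for Cacnb4, and astrocyte minus pyramidal was 1.61 for Cacna2d2 and −3.11 for Cacna2d3. With 5 libraries the exact test cannot go below p = 0.0625. Rare classes limit Cacna2d4, Cacnb1, and Cacnb3, which rest on few UMIs there.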
